A study of Rattus norvegicus with 3 samples.

Results

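Antiviral effector genes of the interferon response were examined in donor kidneys of rats that were reperfused after warm ischaemia and cold storage. The group comprises the RNA-binding genes Ifit1, Ifit2 and Ifit3, the oligoadenylate synthetase genes Oas1a and Oasl, and the genes Rsad2, Cmpk2, Isg20, Bst2 and Ifi27. Members were chosen by name: a probe set was taken when its only gene symbol in the platform annotation was 1 of these 10. This gave 12 of the 31099 probe sets on the array and 10 of the 14218 genes with a symbol of their own. Ifit2 and Cmpk2 had 2 probe sets each, and the other 8 genes had 1 each.

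The arrays stood for 3 groups of recipients. Heparin recipients were infused at 100 U/ml/h, peptide recipients received peptide 2, whose sequence is based on the part of the chemokine CCL5 that binds heparin, at 0.5 mg/ml, and control recipients received saline at 1 ml/h. Delivery is called a bolus in one label and an infusion in another, so it is not settled. In all 3 groups the donor kidneys came from exsanguinated animals left for 20 min of warm ischaemia. The kidneys were then kept in cold University of Wisconsin solution for 17 ± 0.7 h and perfused from the femoral artery of an anaesthetised rat for 5 h 43 min ± 21 min (which error these ± values are is not stated). The animals were male Wistar rats of 370 to 508 g, and no heparin was used as anticoagulant in the procedure itself. Each group had 7 recipients, and RNA of 3 kidneys per group was pooled on 1 array. There is therefore no replicate for any value below, no test was made, and a difference between arrays describes these 3 pools.

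Cells that detect foreign or misplaced nucleic acid release type I interferon, which binds the receptor made of Ifnar1 and Ifnar2. The kinases Jak1 and Tyk2 then activate a complex that contains Stat2 and Irf9 and binds a DNA element in the promoters of interferon-stimulated genes. The products of the genes described here act late in this chain. They bind or degrade viral RNA, deplete or alter the nucleotides a virus needs, or hold budding particles at the cell surface.

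The DNA element is built around the letters GAAA repeated with a short gap. RefSeq promoter sequences (GRCr8) were in the table used for 8 of the 10 genes, all but Ifit1 and Ifit2. This sequence with any 2 bases between the repeats was searched on both strands in the 250 bases before the gene start. It was present in 6 of these 8 promoters (Ifit3, Oas1a, Rsad2, Isg20, Bst2 and Ifi27), against 3.41% of all 33469 promoters in the table. Oas1a and Bst2 each held 2 overlapping matches and Ifi27 held 2 separate ones. No match was found for Cmpk2 and Oasl. The Cmpk2 promoter instead held 2 copies of the element with a gap of 1 base, a spacing that was looked for only after that sequence had been seen and that 2.96% of all promoters contain. The letters TTCNNNGAA, the kind of site bound by STAT dimers, were found in Oas1a and Bst2, where in Bst2 they overlap the other element, and in 7.67% of all promoters. Of the 24 other interferon-stimulated antiviral genes with a promoter in the table, 12 held the repeat with the gap of 2 bases. A match in these letters describes the sequence and does not show that a factor bound there.

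The 150 bases before the gene start are printed for the 4 genes in the table that were at least 2-fold higher on both treatment arrays, and for Bst2, which carried overlapping matches and lay closer to control in peptide than in heparin. Capitals mark the GAAA elements, which read as TTTC where they lie on the other strand.
Ifit3, chr1:241527176-241527325, plus strand: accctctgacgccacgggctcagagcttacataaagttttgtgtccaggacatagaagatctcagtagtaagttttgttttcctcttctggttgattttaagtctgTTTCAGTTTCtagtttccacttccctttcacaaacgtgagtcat
Oas1a, chr12:41330316-41330465, plus strand: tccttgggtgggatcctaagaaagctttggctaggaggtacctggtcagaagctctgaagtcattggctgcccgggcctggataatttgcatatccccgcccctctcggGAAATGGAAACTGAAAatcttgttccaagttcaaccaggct
Cmpk2, chr6:48802700-48802849, plus strand: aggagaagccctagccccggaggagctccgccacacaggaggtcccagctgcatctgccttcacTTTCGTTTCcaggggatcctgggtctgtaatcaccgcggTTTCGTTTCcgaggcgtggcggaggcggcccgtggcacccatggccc
Isg20, chr1:142239909-142240058, plus strand: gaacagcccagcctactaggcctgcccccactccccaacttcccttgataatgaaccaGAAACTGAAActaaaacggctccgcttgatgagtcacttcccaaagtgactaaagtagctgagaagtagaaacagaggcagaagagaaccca
Bst2, chr16:18254968-18255117, minus strand: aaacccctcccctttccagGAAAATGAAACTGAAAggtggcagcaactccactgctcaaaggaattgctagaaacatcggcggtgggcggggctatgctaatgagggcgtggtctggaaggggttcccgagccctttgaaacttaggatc

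**Figure D1:**
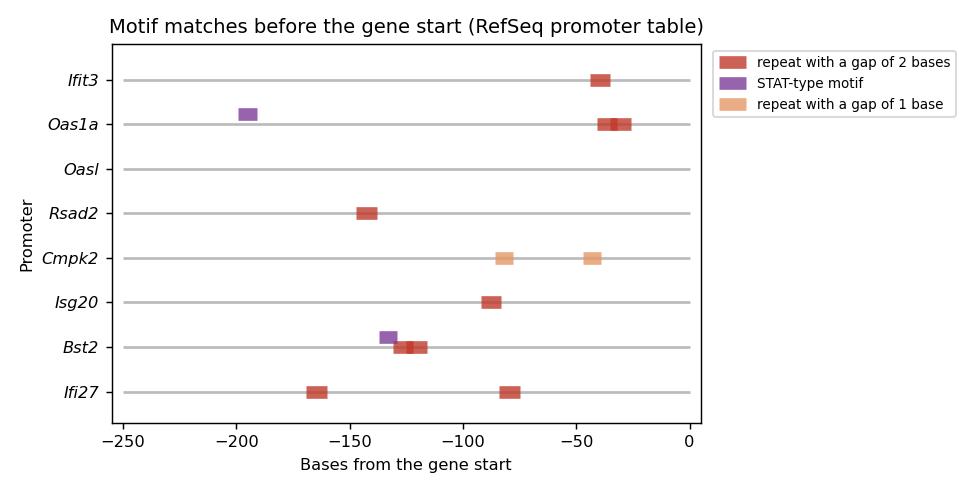
Position of the motif matches in the 250 bases before the gene start (x axis, bases from the start) for the 8 genes with a promoter in the RefSeq table (rows). The repeat with a gap of 2 bases is found in 6 promoters, the repeat with a gap of 1 base in Cmpk2, the STAT-type motif in Oas1a and Bst2, and Oasl has no match.

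Some of the genes are neighbours. In the RefSeq gene table Rsad2 and Cmpk2 lie next to each other on chromosome 6, on opposite strands. Ifit2 and Ifit3 are adjacent on chromosome 1, and Ifi27 lies beside its relative Ifi27l2b on chromosome 6. The gene after Ifit3 is its relative Ifit1bl. Ifit1 is on chromosome 1 too, between LOC120100208 and Slc16a12, and its distance from Ifit3 was not read. The members are therefore not independent of each other, and they were all read from the same 3 arrays.

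Values are GCRMA log2 expression values per probe set, so a difference of 1 is 2-fold. The heparin, peptide and control arrays had the same lowest value, 2.18, and medians of 4.16, 4.14 and 4.14. A gene was counted as measured in a comparison when it was at or above the array median on both arrays, and a gene with several probe sets stood by the one with the highest mean. Kidney transcripts were bright on the 3 arrays. Umod, the uromodulin of the loop of Henle, read 15.02 in heparin, 14.88 in peptide and 14.85 in control. The phosphate transporter Slc34a1 of the proximal tubule read 14.09, 14.22 and 14.09 in the same order.

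Heparin against control asked what heparin did to the reperfused kidney. All 10 antiviral effectors were measured on both arrays and all 10 were higher on the heparin array, by 0.38 to 1.98 on the log2 scale. Ifit1, Ifit2, Ifit3, Oas1a, Cmpk2 and Isg20 were at least 2-fold higher, and Rsad2, Bst2, Oasl and Ifi27 were higher by less than that. Over all 9236 measured genes, 1.06% reached 2-fold higher and 0.747% reached 2-fold lower. The members' median difference was 1.24 (2.36-fold), beside 0.00 over all measured genes.

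Peptide against control asked the same of the peptide. Of the 10 genes 9 were measured on both arrays, and 8 of these were higher on the peptide array. Ifit2, Ifit3, Oas1a, Cmpk2 and Isg20 were at least 2-fold higher, where 0.723% of 9268 measured genes were, and 0.119% were at least 2-fold lower. Oasl and Rsad2 were higher by less than 2-fold, Bst2 and Ifi27 were close to control, and Ifit1 was below the array median in peptide. The median over the 9 was 1.02 (2.02-fold), and over all 10 with the Ifit1 value as deposited it was 0.88. The median over all measured genes was 0.00. Both comparisons use the same control array, so a high or low control value would move them together.

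**Figure D2:**
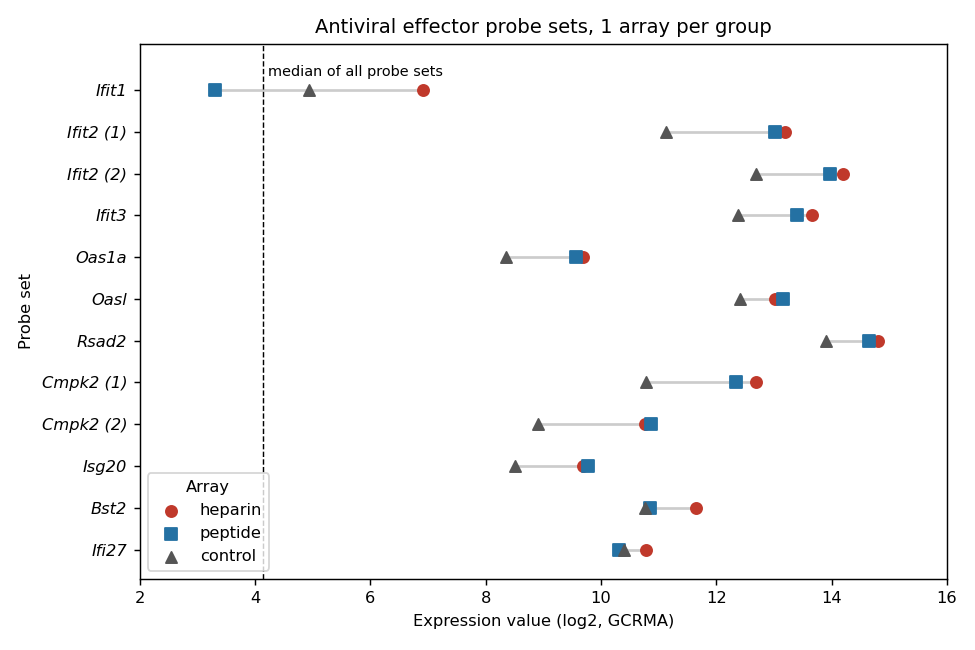
Log2 expression value (x axis) of each of the 12 probe sets (rows) on the heparin, peptide and control arrays, 1 point per array; the dashed line is the control array's median. For Ifit2, Ifit3, Oas1a, Oasl, Rsad2, Cmpk2 and Isg20 the heparin and peptide points lie together to the right of control, while Ifit1 lies near the median with peptide to the left of control.

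The Ifit genes encode proteins with tetratricopeptide repeats. Ifit1 recognises messenger RNA that lacks the methylation of host caps, and Ifit2 and Ifit3 bind RNA or form complexes with other family members. The brighter probe set of Ifit2 read 14.19 in heparin, 13.97 in peptide and 12.68 in control. The other read 13.19 in heparin, 13.01 in peptide and 11.13 in control. The treatment arrays therefore lay close together and above control in both, with differences from control of 1.51 and 2.06 for heparin and of 1.29 and 1.88 for peptide. The brighter probe set gave the smaller difference each time. Ifit3 read 13.67 in heparin, 13.39 in peptide and 12.37 in control. It was 1.29 higher in heparin and 1.02 higher in peptide. The peptide difference lay at the 2-fold limit, and after the arrays were centred on their medians it was 0.999, which left 4 members at least 2-fold higher.

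Ifit1 was above control in heparin, like Ifit2 and Ifit3, but did not follow them in peptide. Its only probe set read 6.91 in heparin, 3.30 in peptide and 4.93 in control. Heparin was 1.98 higher than control (3.96-fold), the 18th highest of the 9236 measured genes. Peptide was below control and below its own array's median, so only the deposited difference of -1.62 can be given, with no fold. The control value itself lay between the array's median, 4.14, and its 60th percentile, 5.90. On the heparin array 68.6% of probe sets were dimmer than Ifit1, and on the control array 54.0%. The 2 probe sets of Ifit2 and that of Ifit3 had at least 96.8% of probe sets below them on the control array, so Ifit1 was read in a different part of the scale from its relatives.

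Heparin exceeded peptide for Ifit1 by 3.61 as deposited, but the peptide value is below the array median, so this size is not a measured one. Set against the peptide array's median in place of the dim value, the bound on the deposited values was at least 6.83-fold higher in heparin (2.77 on the log2 scale). With 1 probe set and 1 array per pool no second reading of Ifit1 exists in these data. Adding 32 to the unlogged values, which shrinks differences of dim probe sets, gave Ifit1 1.29 for heparin and -0.58 for peptide against control, and 1.86 between heparin and peptide. The difference of peptide from control then no longer reached 2-fold, and that between heparin and peptide was under the bound, which holds for the deposited values only.

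The Oas genes encode or resemble enzymes that make short oligoadenylates, signals for the breakdown of RNA in infected cells. Oas1a read 9.68 in heparin, 9.57 in peptide and 8.36 in control, a difference from control of 1.33 for heparin and 1.21 for peptide. Oasl, an oligoadenylate synthetase-like protein, read 13.02 in heparin, 13.15 in peptide and 12.41 in control. Both treatment arrays lay above control for each gene, but Oasl differed by 0.61 and 0.74, less than 2-fold. Oas1b, a further gene of the Oas1 family on the array, read 8.63 in heparin, 8.32 in peptide and 7.01 in control, with differences from control of 1.62 and 1.31.

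Rsad2 and Cmpk2 act on nucleotides. Rsad2, also called viperin, makes a chain-terminating form of CTP, and Cmpk2 is a mitochondrial nucleotide kinase. Rsad2 read 14.80 in heparin, 14.65 in peptide and 13.91 in control, near the top of the scale: 25 probe sets were brighter on the heparin array and 68 on the control array. It was 0.90 higher in heparin than in control and 0.74 higher in peptide than in control. The brighter probe set of Cmpk2 read 12.68 in heparin, 12.34 in peptide and 10.78 in control. The other read 10.76 in heparin, 10.86 in peptide and 8.91 in control. Differences from control were 1.90 and 1.86 for heparin, and 1.56 and 1.95 for peptide. The neighbours Rsad2 and Cmpk2 were thus both above control on the treatment arrays.

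Isg20 is an exonuclease that degrades RNA. It read 9.69 in heparin, 9.77 in peptide and 8.51 in control, so that both treatment arrays were more than 2-fold above control (1.19 and 1.26). Bst2, also called tetherin, holds budding virus particles at the cell surface. It read 11.65 in heparin, 10.84 in peptide and 10.76 in control. Heparin thus stood apart by 0.88, and peptide differed from control by 0.08. Ifi27 encodes a small interferon-induced membrane protein. It read 10.78 in heparin, 10.31 in peptide and 10.40 in control, differences of 0.38 for heparin and -0.09 for peptide. The neighbouring relative Ifi27l2b read 11.24 in heparin, 11.23 in peptide and 10.63 in control, with differences from control of 0.61 and 0.59.

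**Figure D3:**
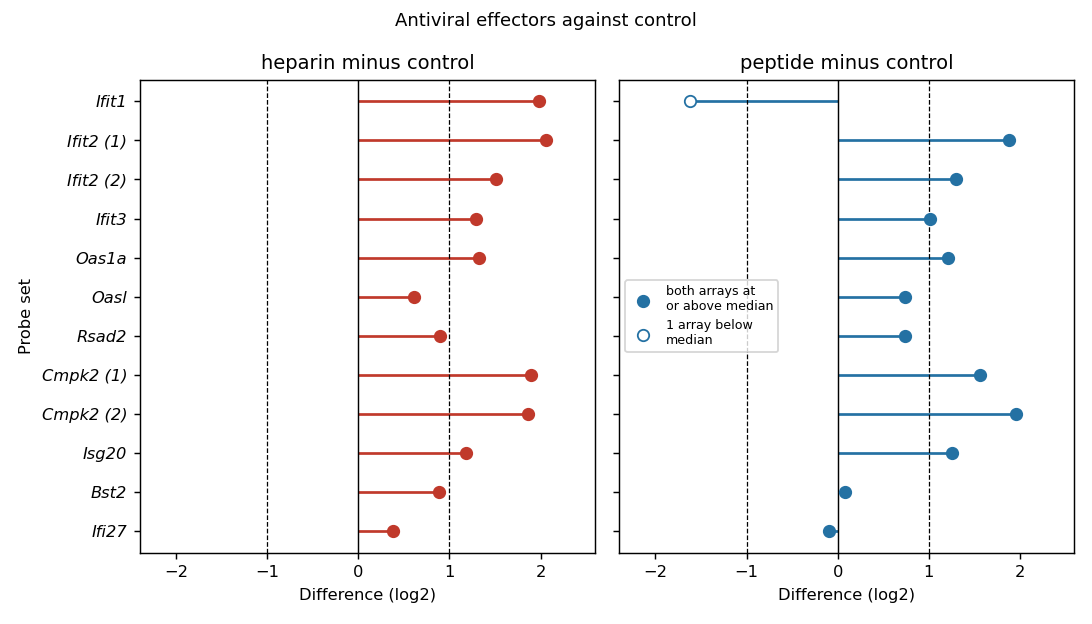
Difference from control (x axis, log2) of each probe set (rows) for heparin (left) and peptide (right); dashed lines mark 2-fold and the open circle a probe set below the array median on 1 array. Every probe set is above 0 for heparin, whereas for peptide Ifit1 is at -1.62 and Bst2 and Ifi27 lie near 0.

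Heparin against peptide compared the treatments directly, at doses that are not matched. Of the 9 genes measured on both arrays, 0 were at least 2-fold higher or lower in heparin, beside 0.281% of 9240 measured genes higher and 0.844% lower. Over all genes this is 26 higher and 78 lower, and 36 higher and 57 lower after quantile normalization, or 35 and 60 after median centring. Ifit1 was outside this count and is given by its bound above. The members' median was 0.22, beside 0.00 over all measured genes, with 7 members higher in heparin and 2 lower. Bst2 differed most, by 0.80, the 68th highest of the measured genes. Ifi27 followed with 0.47 and Cmpk2 with 0.34. Oasl and Isg20 were the genes lower in heparin, by -0.13 and -0.07.

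Different probe sets of a gene give the only internal measure of agreement in these data, and it does not stand for the spread between kidneys. Over 2218 genes with more than 1 measured probe set, the gap between a gene's probe sets in heparin minus peptide had a median of 0.21 and a 95th percentile of 0.80. For Cmpk2 the gap was 0.43 and the sign differed, at 0.34 and -0.09. The Ifit2 probe sets gave 0.22 and 0.18. Against control the gap had a median of 0.21 and a 95th percentile of 0.81 for heparin (2220 genes), and of 0.12 and 0.54 for peptide (2235 genes). Among genes at least 2-fold apart the gaps had medians of 0.77 for heparin against control (25 genes), 0.39 for peptide against control (9 genes) and 0.93 for heparin against peptide (24 genes). Ifit2 had gaps of 0.55 for heparin and 0.59 for peptide, and Cmpk2 of 0.04 and 0.39. The difference of Bst2 between the treatments is of the size of the 95th percentile of 0.80 over all these genes, and the differences of the other measured members are smaller. For heparin against control, Oasl (0.61) and Ifi27 (0.38) are under the 95th percentile of 0.81. Bst2 (0.88) and Rsad2 (0.90) lie just above it. For peptide against control, Bst2 (0.08) and Ifi27 (-0.09) are under that of 0.54.

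**Figure D4:**
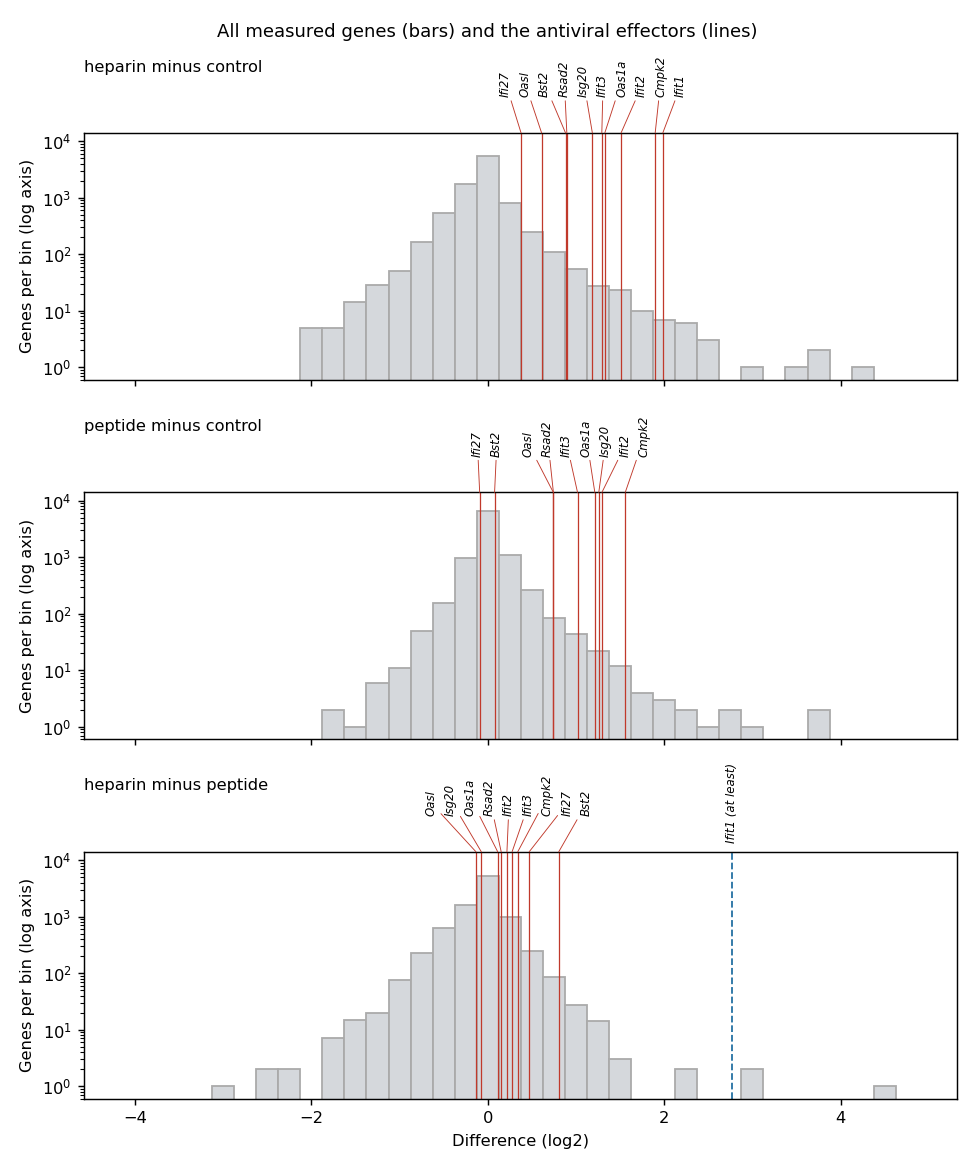
Distribution of the log2 difference (x axis) over all measured genes (grey bars, number of genes on a log axis) in each comparison, with a red line for each measured member and a dashed blue line for the Ifit1 bound. Members lie to the right in both comparisons with control, except Bst2 and Ifi27 in peptide. Between the treatments Bst2 is at 0.80, Ifi27 at 0.47 and the other measured members between -0.13 and 0.34, and the Ifit1 bound lies beyond them.

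Genes with a pattern like that of Ifit1 or Ifit2 were ranked by the Euclidean distance between their pairs of differences from control, over 3 arrays and 9287 candidate genes. Ifit2 had close neighbours: Lgals3bp, Tap1, Rtp4, Rnf213 and Oas1b lay at 0.05 to 0.11. For Ifit1 the distances use the deposited peptide difference of -1.62, which rests on a value below the array median, and its position in this ranking is therefore uncertain. The nearest genes by that value were Ighl2 at 0.69, Myh1 at 0.93, Akr1d1 at 1.12, RT1-T24-3 at 1.48 and Jchain at 1.57. Ighl2, named for an immunoglobulin heavy chain, read 7.16 in heparin, 4.20 in peptide and 5.86 in control. Myh1 was bright on all 3 arrays, at 14.48 in heparin, 12.17 in peptide and 13.04 in control. Its source in these pools was not tested. These symbols are those of the platform annotation, and with 3 arrays such likeness is a description only.

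The rest of the pathway was read from lists of ligands, receptors, signal carriers and other induced genes. Of 11 interferon ligands 3 were matched. Ifnb1, the gene of interferon beta, read 5.16 in heparin, 6.38 in peptide and 3.31 in control, where it was below the array median. It was thus highest in peptide, the array on which Ifit1 was lowest. Ifng and Ifnk read 2.18, the lowest value, on each of the 3 arrays. All 6 receptor genes were measured, and 0 were 2-fold higher in heparin or in peptide than in control. The shares over all measured genes were 1.06% and 0.723%. Ifnar1 was 1.12 lower in heparin by its brightest probe set, which read 5.93 in heparin, 6.30 in peptide and 7.05 in control. Its other 5 probe sets differed by at most 0.04. Among these, the ones that read 2.18 and 3.93 on all 3 arrays were below the median and so not measured. Ifnar2 read 8.05 in heparin, 7.96 in peptide and 7.96 in control.

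Of 9 measured genes of signal transduction, 3 were at least 2-fold higher in heparin and 2 in peptide, and 0 were 2-fold lower. Among all measured genes 1.06% were higher by this limit in heparin and 0.723% in peptide, and 0.747% and 0.119% were lower. Irf7, a transcription factor that drives interferon genes, read 12.31 in heparin, 11.90 in peptide and 10.22 in control. Usp18, which removes ISG15 from proteins and dampens the receptor, was 2.21 higher in heparin and 1.84 higher in peptide. Stat2 was 1.11 higher in heparin and 0.91 in peptide, and Irf9 was 0.30 higher in each by its brighter probe set and 0.90 and 0.58 higher by its other one. Jak1 differed by 0.28 and 0.04.

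All 31 matched genes of the list of other interferon-stimulated antiviral genes were measured. In heparin 20 were at least 2-fold higher and 1 lower (Mx2, at -1.17, while its dimmer probe set was at 2.46), and in peptide 14 were higher and 0 lower. The shares over all measured genes were 1.06% higher and 0.747% lower in heparin, and 0.723% and 0.119% in peptide. The list medians were 1.18 and 0.94, beside 1.24 and 1.02 for the effectors described here. The members furthest from control on each treatment array were Uba7, Gbp4, Samhd1 and Zbp1, between 2.31 and 2.88. Ifitm1 and Ifitm2, antiviral membrane proteins named after their values were seen, had differences of 0.00 in both comparisons. Their deposited values were exactly equal on all 3 arrays, at 9.58 for Ifitm1 and 10.36 for Ifitm2. Such ties, also present for Ifngr2 and Pecam1, need not be a measured lack of change. Ifitm3 of the same family was 1.31 higher in heparin and 0.71 higher in peptide. Heparin and peptide were 2-fold apart for 0 of the 31 genes, with a median of 0.20. Over all measured genes only 0.281% were that much higher in heparin than in peptide and 0.844% lower.

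**Figure D5:**
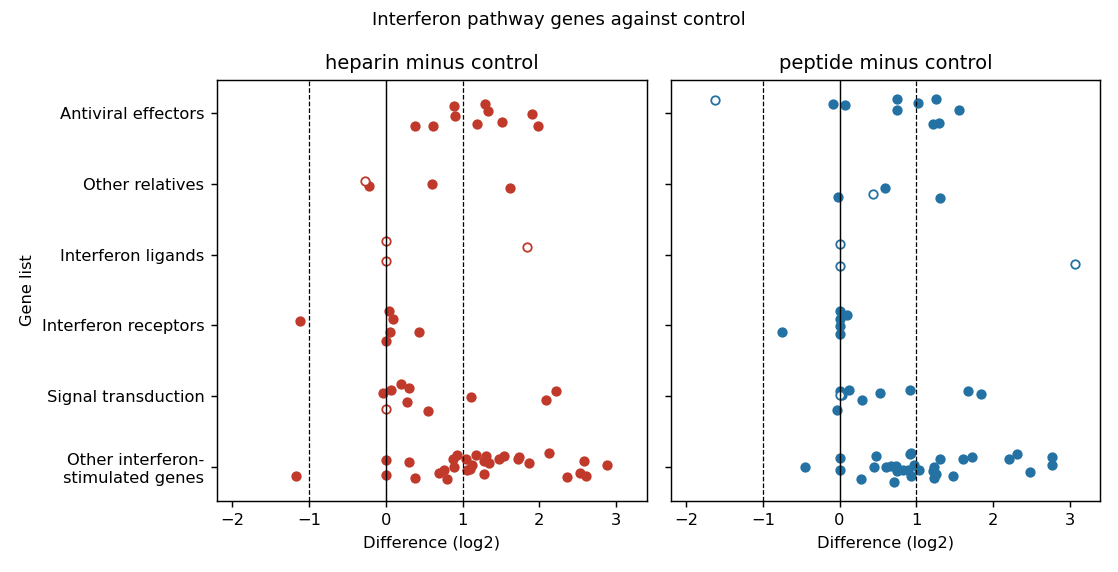
Difference from control (x axis, log2) of each matched gene in 6 lists (rows) for heparin (left) and peptide (right); dashed lines mark 2-fold and open circles a gene below the array median on 1 or both arrays. The effectors and other interferon-stimulated genes lie mostly to the right of 0, the receptors near 0 apart from Ifnar1, and the open circle at the far right of the peptide panel is Ifnb1.

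Markers of blood and tissue cells were read beside these genes, since in a bulk sample more cells of a type and more RNA per cell cannot be told apart. Of 8 monocyte and macrophage markers 7 were measured, and Fcgr3a was the 1 at least 2-fold higher, by 1.06 in heparin and 1.34 in peptide. The list medians were 0.39 in heparin and 0.04 in peptide. Its unlogged values summed to 17452.5 in heparin, 13207 in peptide and 12323.6 in control, mostly from Lyz2, and Cd163 was at the array's lowest value. Of 5 neutrophil markers 0 were 2-fold apart from control, with medians of -0.08 in heparin and 0.00 in peptide. Their sums, mostly from S100a8 and S100a9, were 11908.8 in heparin, 15404.3 in peptide and 12750.5 in control. The 2-fold limit was seldom passed on these arrays, so a count of 0 among 5 markers says little about neutrophils. For this list and the monocyte list, the background is the share of all measured genes beyond that limit. Against control it was 1.06% upwards and 0.747% downwards for heparin, and 0.723% upwards and 0.119% downwards for peptide. Of 9 T and NK cell markers 7 were below the median on all 3 arrays, with Cd3d, Klrd1 and Nkg7 at the lowest value. The B cell markers Cd79b and Ms4a1 were at that value too, as were Flt3, Clec9a and Batf3 among 5 dendritic cell markers, within 0.05. The other dendritic cell markers were above the median on all 3 arrays. Itgax differed from control by -0.44 in heparin and -0.62 in peptide, and Tcf4 by 0.76 and 0.27. The 5 podocyte markers were all higher in heparin than in control (median 0.52) and all lower in peptide than in control (median -0.19). The 5 endothelial markers had medians of 0.32 in heparin and 0.00 in peptide. Among 6 red cell and platelet markers 5 were lower in heparin (median -0.85) and 5 in peptide (median -0.27). The platelet tubulin Tubb1 differed by -1.49 in heparin and -1.22 in peptide, Pf4 by -0.76 and -0.90, and the haem synthesis gene Alas2 by -1.13 and -0.34. Gypc of the same list went the other way, 0.998 higher in heparin and 0.57 higher in peptide, and Hbb differed by -0.24 and -0.06. Of 6 markers of the loop of Henle and distal nephron, 4 were lower and 2 higher in heparin (median -0.23). In peptide 2 were lower and 2 higher (median 0.00). Calb1 of this list lay furthest from control in heparin, at -1.83, and differed by -0.22 in peptide. Of the 9 antiviral effectors measured on both treatment arrays, 7 were higher in heparin than in peptide, Bst2 and Ifi27 by the most. The median over all measured genes was 0.00. Cmpk2 was among the 7 by its brighter probe set only, as its other one was at -0.09. The part of the cell markers in the results was not tested.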

How the data were processed

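Biotin-labelled cRNA from 6 µg of pooled RNA was hybridised to Affymetrix rat arrays, 1 array per group, per the labels' protocols. The authors deposited 1 log2 value per probe set and array. Per the submitters' processing notes these come from GCRMA, which corrects background by probe sequence; version, settings and normalization between arrays are not stated. They were used as deposited. Of 31099 probe sets, 20832 had a single symbol in the platform annotation. A gene stood by its probe set of highest mean, was measured when at or above the array median on both arrays, and was counted at 2-fold. A bound was given when the dim array was below its median and the bright one at or above its 60th percentile. Arrays have no read depth, and 1 array per group limits the precision: no test, p-value or SD is possible. All members and probe sets are named. Up to 4 genes furthest from control per pathway list are named too, with Ifnb1, Ifnar1, Ifnar2, Stat2, Irf9 and Irf7 (other genes of that rule are not reported here), and the 5 nearest patterns to Ifit1 and Ifit2. The members, lists and rules were chosen with earlier results of these data known. Promoters came from a RefSeq table of GRCr8; the 1-base gap was added after seeing the data. Protein sequences were not used here. The counting was tested on simulated data. Python 3.11.15, pandas 2.3.3, numpy 2.4.6 and matplotlib 3.10.9 were used.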

Additional observations from a re-analysis of the deposited data

How the results depend on the processing

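No paired analysis was possible because each group has 1 array, and no replicate could be left out. Of 102 recomputed differences of single members that the alternative could change, 11 moved by over 0.1, those of Ifit1 after adding 32 and those of Ifit2 and Cmpk2 with other probe sets. The 2-fold counts of members higher than control stayed within 1.5 times of 6 and 5. Ifit1 is the member most exposed to the filter. With no filter, or one at the 40th percentile, 1 member was 2-fold lower in peptide than in control and 1 was 2-fold higher in heparin than in peptide, both times Ifit1, and the median of peptide against control was 0.88. With the 60th percentile Ifit1 dropped out. At 1.5-fold, 1 member was higher in heparin than in peptide (Bst2). Counts over all genes moved more. At 1.5-fold they were 281 higher and 311 lower (heparin against control), 196 and 85 (peptide against control), and 150 and 422 (heparin against peptide), against 98 and 69, 67 and 11, and 26 and 78 at 2-fold. After adding 32 to the unlogged values, 40 were lower in heparin and 6 in peptide than in control, and 15 were higher and 40 lower in heparin than in peptide. Genes higher in heparin than in peptide numbered 49 with no filter, 16 with the 60th percentile and 13 with the mean of probe sets. Genes lower than control numbered 7 in peptide with the 60th percentile and 104 in heparin with the dimmest measured probe set. The cause was not tested.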
